A study of Mus musculus with 6 samples.

Results

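The mitochondrial ribosomal protein genes are the nuclear genes, named Mrpl for the large subunit and Mrps for the small subunit, that encode the protein part of the mitochondrial ribosome. All rows of the count table whose symbol begins with Mrpl or Mrps followed by a digit were taken, whatever their values, which gave 78 genes of 16281. They were measured in CD8+ T cells from the spleens of OT1 mice, a C57BL/6 strain with the genotype Tg(TcraTcrb)1100Mjb, whose transgenic T-cell receptor recognizes an ovalbumin peptide. In all samples the cells were activated with anti-CD3 and anti-CD28 in the presence of IL-2 for 48 h and then expanded with IL-2 for 3 days. The 3 GSK samples were kept throughout in 0.5 μM GSK2879552 (GSK), an irreversible inhibitor of the histone demethylase LSD1, and the 3 Veh samples in vehicle. The study names 3 separate mice as the source of the cells and 3 mice per group. Whether GSK and Veh samples share a mouse is not stated. The age of the mice is not given in the sources used here, and polyadenylated RNA was sequenced.

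Mitochondrial ribosomes translate the few proteins encoded by mitochondrial DNA, which are core subunits of the respiratory chain and the ATP synthase. Their proteins are made in the cytosol and imported, and they assemble with the mitochondrial rRNAs with the help of GTPases, helicases and rRNA-modifying enzymes. Part of the proteins have a counterpart in the bacterial ribosome, and the others are found only in mitochondria. Activated T cells increase their mitochondrial mass, and mitochondrial translation is known to be needed for T-cell proliferation and effector function.

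The promoters of such genes often hold sites for NRF1, for ETS-family factors such as GABP and for YY1. The core of the NRF1 motif was found in 7 of the 69 members searched (10.1%), against 4.49% of the tested genes searched. The sequences before the start sites of 4 of these 7 are shown, as examples of how differently genes with the same motif behaved. They are the 100 bases before the RefSeq start (build GRCm38.p6), written 5′ to 3′ on the strand of the gene, and the capitals mark the core of the NRF1 motif. Mrpl17 lies at chr7:105811088-105811187 on the minus strand, Mrpl22 at chr11:58171564-58171663 on the plus strand, Mrpl32 at chr13:14613038-14613137 on the minus strand and Mrpl9 at chr3:94443236-94443335 on the plus strand. For Mrpl17 and Mrpl32 the gene as GENCODE annotates it starts further upstream than the RefSeq start, so the marked cores lie inside that annotated gene. Mrpl9 was named after its values were seen.
Mrpl17: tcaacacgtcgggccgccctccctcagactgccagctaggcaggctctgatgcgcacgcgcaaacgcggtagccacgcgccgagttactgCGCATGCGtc
Mrpl22: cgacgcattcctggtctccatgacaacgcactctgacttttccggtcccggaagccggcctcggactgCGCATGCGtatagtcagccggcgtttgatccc
Mrpl32: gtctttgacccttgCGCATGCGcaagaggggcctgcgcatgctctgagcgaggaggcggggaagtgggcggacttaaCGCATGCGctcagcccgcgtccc
Mrpl9: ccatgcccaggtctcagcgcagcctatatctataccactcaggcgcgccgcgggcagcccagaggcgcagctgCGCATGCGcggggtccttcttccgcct
The motif occurs once in Mrpl17 and Mrpl22, which were among the members that rose most, in duplicate in Mrpl32, whose difference did not pass the test, and once in Mrpl9, which had one of the lowest fold changes of the family.

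The counts of the 6 samples summed to between 18288447 and 19846720, and the members' own counts lay between 186 and 2291 per sample. Levels are given as CPM, the count divided by the TMM-scaled total of the sample and set to a common library size, and the TMM factors lay between 0.9906 and 1.006. Differences were tested by the quasi-likelihood method of edgeR, with Benjamini-Hochberg adjusted p-values over 11698 genes, and a gene was called at an adjusted p under 0.05. Of the CD8 T cell markers, Cd8a averaged 516 CPM in Veh and 541 CPM in GSK (adjusted p = 0.20), and Cd8b1 406 and 375 CPM (log2 fold change -0.11, adjusted p = 0.072), which passed with upper quartile factors (0.025), with total counts only (0.043) and without GSK replicate 2 (0.0080). Cd3g (log2 fold change -0.38), Cd3e (-0.23) and Cd3d (-0.16) were lower in GSK, and Cd2 was higher (0.15), although Cd3d did not pass without Veh replicate 1 (adjusted p = 0.063), nor Cd2 without Veh replicate 2 (0.085), Veh replicate 3 (0.11) or GSK replicate 2 (0.073) or with upper quartile factors (0.075). The 5 B-cell markers summed to 5.78 to 7.94 CPM in Veh and 5.53 to 6.53 CPM in GSK, the 5 myeloid markers to 2.79 to 4.68 and 1.30 to 2.73 CPM, Cd4 reached at most 1.79 CPM and the 4 erythroid markers at most 0.31 CPM in any sample, and the 4 of these genes that could be tested did not pass. With a sample left out, the B-cell marker Cd79b passed as lower without Veh replicate 3 (-0.51, adjusted p = 0.0445). The myeloid marker Itgam did so without GSK replicate 2 (-0.93, adjusted p = 0.037). In both genes all GSK samples were below all Veh samples. Nkg7, listed as an NK marker but also made by activated CD8 T cells, rose from 421 to 582 CPM, Ncr1, which defines NK cells, was at 0 in all samples but GSK replicate 1, and Klrb1c, another NK marker, averaged 2.07 CPM in Veh and 3.03 CPM in GSK (log2 fold change 0.54, adjusted p = 0.13). The part of NK cells in the members' change was not tested. The RNA of Kdm1a, which encodes LSD1, was at 90.2, 89.1 and 99.1 CPM in Veh and at 86.4, 84.0 and 90.9 CPM in GSK (adjusted p = 0.22). GSK inhibits the protein, so this level is no check of the treatment.

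To ask how LSD1 inhibition changed the RNAs of the mitochondrial ribosome, all 78 members were tested, since all passed the filter on low counts. Of the 78 genes, 28 (35.9%) were higher in GSK, none was lower, and 50 did not pass the test. Over all genes tested, 16.6% were higher and 15.5% were lower at this threshold. The changes were small. The 28 called members had log2 fold changes from 0.16 to 0.38, the largest change was 30.2%, and the median over all 78 members was 0.16 on the log2 scale, or 11.6%, against a median of -0.0039 over all genes tested. None of the members was past the fold change of 1.5 that the study also required, a rule that 6.32% of all genes met in either direction, 2.22% as higher and 4.09% as lower. Fold changes were above 0 for 67 of the 78 members (85.9%), against 49.3% of all genes tested. Leaving out single samples moved the number of higher members to 13 without GSK replicate 3, to 14 without Veh replicate 1, to 17 without Veh replicate 3 and to 18 without GSK replicate 1. The share of all genes that were higher in these fits is not given here.

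**Figure D1:**
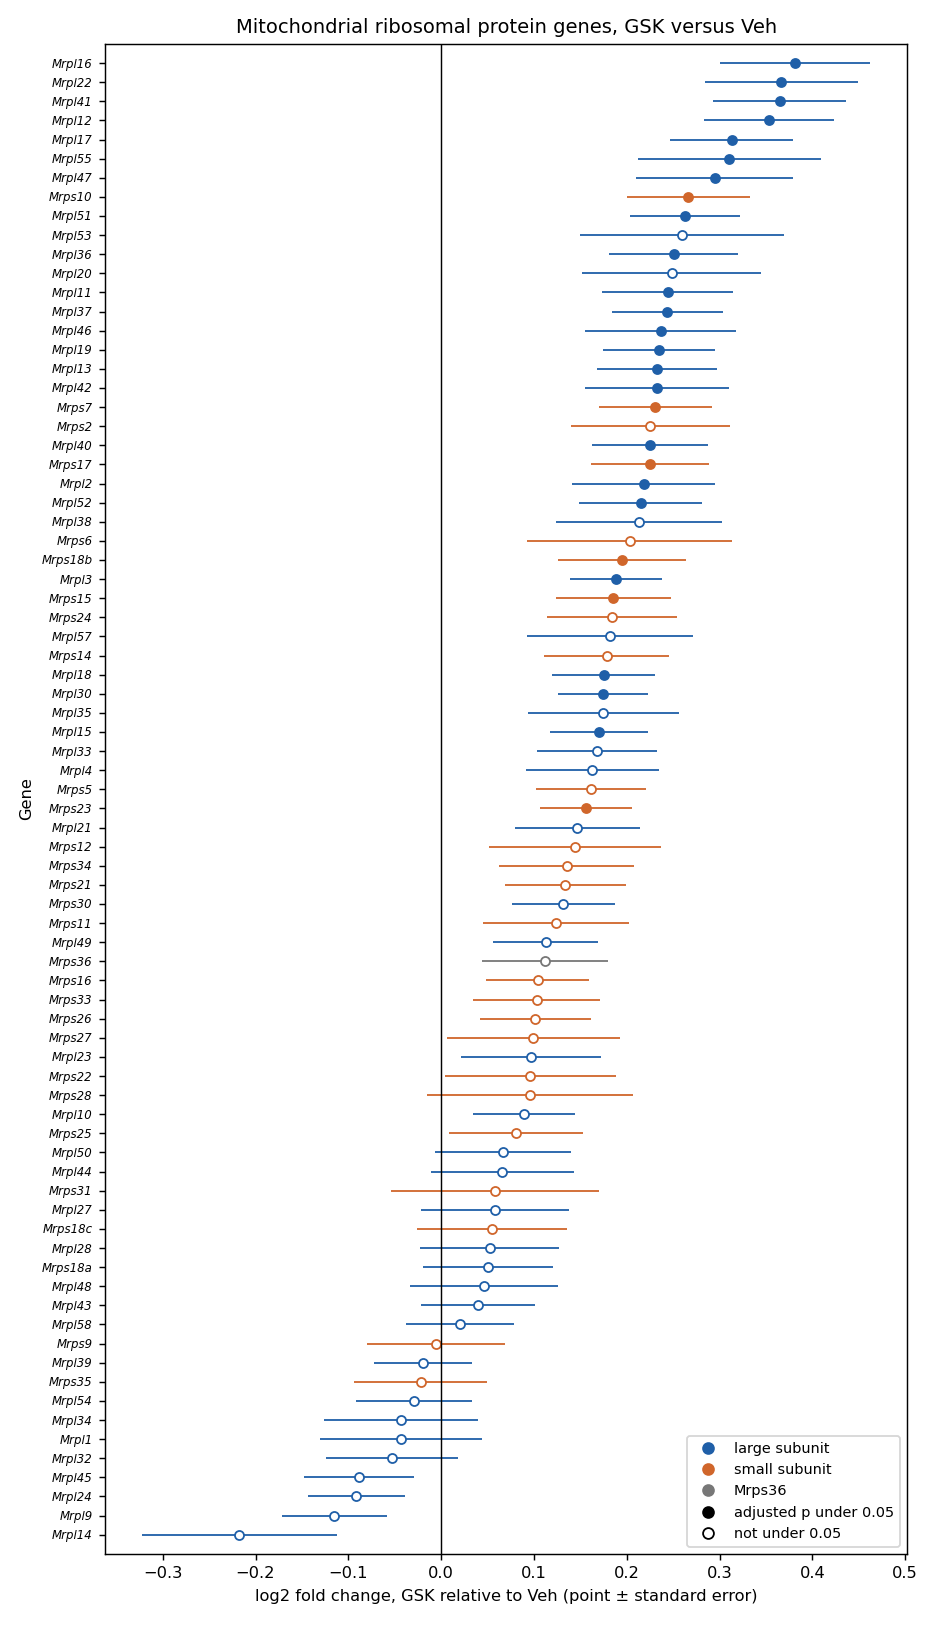
Log2 fold change of each of the 78 members in GSK relative to Veh (x axis; points with standard errors, 3 samples per group), ordered by size, with the large subunit in blue, the small subunit in orange and Mrps36 in grey. Filled points are the 28 members with an adjusted p under 0.05, all to the right of 0, and the values run from -0.22 for Mrpl14 to 0.38 for Mrpl16.

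The shift was present in each GSK sample but was not of one size. Relative to the Veh mean, the median log2 level of the members was -0.023, 0.028 and -0.0044 in Veh replicates 1 to 3 and 0.15, 0.089 and 0.21 in GSK replicates 1 to 3. GSK replicate 2 was the lowest GSK sample for 49 members and GSK replicate 3 the highest for 49, and Veh replicate 1 was the lowest Veh sample for 35. The members' summed level was 3012, 3143 and 3075 CPM in Veh and 3382, 3269 and 3514 CPM in GSK, so that the groups did not overlap, and the mean rose by 10.1%, from 3077 ± 65.8 to 3389 ± 123 CPM (SD, n = 3). Together the members took 0.303% to 0.316% of all counts in Veh and 0.325% to 0.348% in GSK. In bulk RNA, a change in the number of cells of one kind and a change in RNA per cell cannot be told apart.

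Taken one by one, 41 members (52.6%) had all GSK samples above all Veh samples, which was so for 23.7% of all genes tested, and no member had all GSK samples below, which was so for 23% of all genes. Of the 28 called members, 27 were among these 41, and the exception was Mrpl42. For one gene alone, the smallest p of a two-sided exact permutation test with n = 3 in each group is 0.1.

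**Figure D2:**
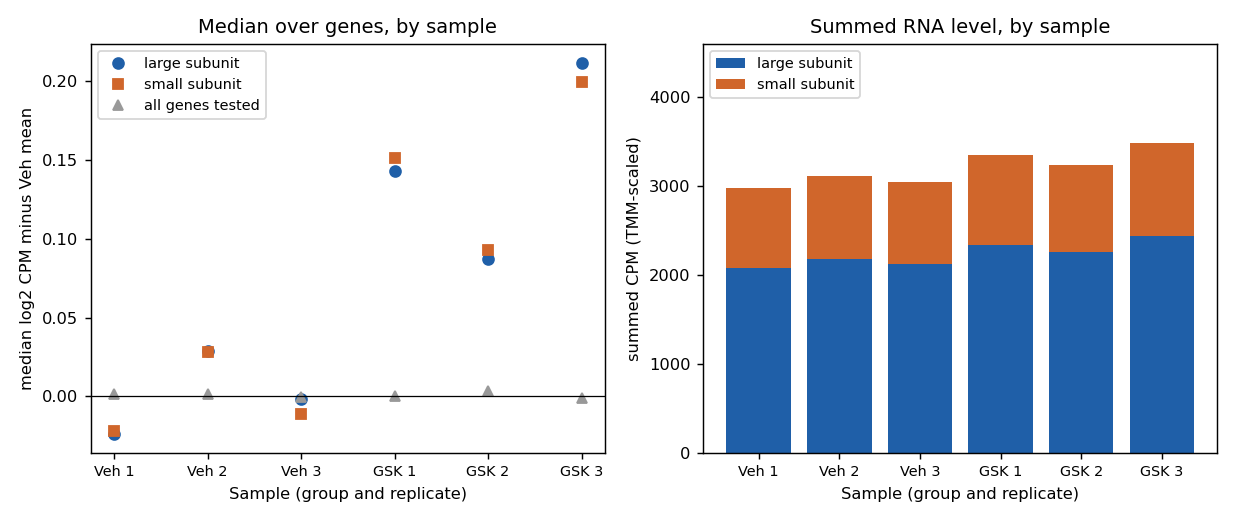
Left, median over genes of log2 CPM minus the Veh mean, by sample, for the large subunit, the small subunit and all genes tested. Right, summed CPM of both subunits by sample as stacked bars. Both subunits are above all Veh samples in each GSK sample, with GSK replicate 2 the lowest and GSK replicate 3 the highest, and the medians of all genes stay near 0.

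In the large subunit, which holds the peptidyl transferase centre and the exit tunnel, 22 of 51 members rose (43.1%), against 16.6% of all genes tested. The median log2 fold change over the 51 was 0.17. The subunit was counted as the Mrpl genes with Mrps30 and Mrps18a, whose proteins sit in the large subunit despite their names. In the small subunit, which binds the mRNA and holds the decoding site, 6 of 26 rose (23.1%), nearer the share of all genes, with a median of 0.13. Without Veh replicate 1 the large and small subunits had 11 and 3 higher members, without GSK replicate 3 they had 11 and 2, and without GSK replicate 1 the large subunit had 14 and without Veh replicate 3 the small subunit had 2. The ratio of the summed levels of the large to the small subunit was 2.30 to 2.33 in Veh and 2.30 to 2.34 in GSK. Among the 46 members with a bacterial counterpart 19 rose (41.3%), with a median of 0.17. Among the 32 classed as found only in mitochondria, Mrps36 included, 9 rose (28.1%), with a median of 0.11. Without Veh replicate 1 these classes had 10 and 4 higher members, without Veh replicate 3 they had 12 and 5, without GSK replicate 3 they had 9 and 4, and without GSK replicate 1 the second class had 4. The share of all genes that rose in the fits without a sample is not given here. No difference between these classes was tested.

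The 8 called members that rose most were 7 large-subunit proteins and 1 small-subunit protein, all protein-coding genes whose positions are given as GENCODE annotates them on GRCm38. Mrpl16 (chr19:11770391-11774960, plus strand), whose bacterial counterpart lies near the peptidyl transferase centre, was at 27.5, 33.7 and 29.5 CPM in Veh and at 39.0, 37.5 and 41.7 CPM in GSK. All GSK samples were above all Veh samples, and the difference was 0.38 on the log2 scale (standard error 0.081, adjusted p = 0.0035). Mrpl22 (chr11:58171661-58179565, plus strand), a protein that lines the exit tunnel, was at 18.7, 17.2 and 16.1 CPM in Veh and at 22.6, 21.9 and 22.4 CPM in GSK. The GSK samples lay close together and above Veh, higher by 0.37 on the log2 scale (standard error 0.082, adjusted p = 0.0048).

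Mrpl41 (chr2:24974117-24975098, minus strand), a protein that bacteria lack, was at 22.8, 23.7 and 21.7 CPM in Veh and at 29.5, 28.4 and 30.0 CPM in GSK. It rose by 0.36 on the log2 scale (standard error 0.072, adjusted p = 0.0022), and its groups did not overlap. Mrpl12 (chr11:120484613-120489065, plus strand) forms the stalk that recruits translation factors and has also been described as a partner of the mitochondrial RNA polymerase. Its levels were 66.8, 75.9 and 68.2 CPM in Veh and 90.6, 81.6 and 97.3 CPM in GSK, higher in each GSK sample than in any Veh sample. Its RNA rose by 0.35 on the log2 scale (standard error 0.070, adjusted p = 0.0026), and 200 bases of its exons are shared with Gm16755 on the opposite strand.

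Mrpl17 (chr7:105803206-105811099, minus strand), which sits beside the tunnel exit, was at 26.7, 28.1 and 28.0 CPM in Veh and at 34.0, 33.7 and 35.1 CPM in GSK. Each group was tight, and the rise was 0.31 on the log2 scale (standard error 0.066, adjusted p = 0.0033). Mrps10 (chr17:47368887-47381417, plus strand), a protein of the head of the small subunit, was at 28.2, 29.5 and 28.2 CPM in Veh and at 35.8, 33.2 and 34.3 CPM in GSK. Its groups did not overlap either, and it rose by 0.27 on the log2 scale (standard error 0.066, adjusted p = 0.0088).

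Mrpl55 (chr11:59202486-59206134, plus strand) and Mrpl47 (chr3:32725397-32737605, minus strand), the counterparts of bacterial proteins of the large subunit, were low and less secure. Mrpl55 was at 14.6, 14.6 and 16.1 CPM in Veh and at 20.6, 16.7 and 18.9 CPM in GSK (log2 fold change 0.31 ± 0.098, standard error; adjusted p = 0.029). It did not pass with DESeq2 (adjusted p = 0.059), nor without Veh replicate 1 (0.088), Veh replicate 2 (0.084), GSK replicate 1 (0.14) or GSK replicate 3 (0.066). Mrpl47 was at 14.8, 14.3 and 15.1 CPM in Veh and at 18.4, 17.3 and 18.6 CPM in GSK (log2 fold change 0.29, standard error 0.085, adjusted p = 0.018), did not pass with DESeq2 (0.059) or without Veh replicate 2 (0.058), GSK replicate 1 (0.067) or GSK replicate 3 (0.058), and shares 1068 bases of exon with Actl6a and Ndufb5 on the opposite strand. The other 6 of these 8 genes were called under every alternative tried, and their groups in the plot of values by sample stand apart.

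**Figure D3:**
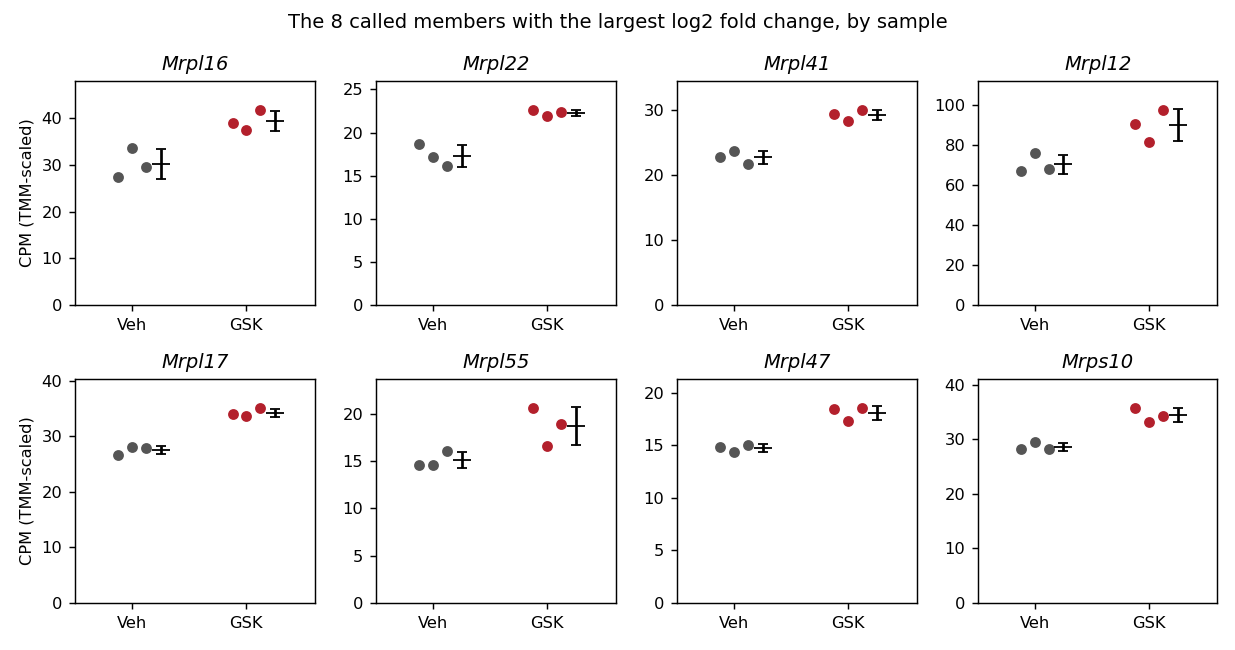
CPM in each sample (points), with the mean and SD of each group beside them (n = 3), for the 8 called members with the largest log2 fold change. The axes start at 0, and in each panel the 3 GSK points lie above the 3 Veh points, closest together for Mrpl55.

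The other called members of the small subunit, named after their values were seen, were Mrps7, Mrps17, Mrps18b, Mrps15 and Mrps23. Mrps7, a protein of the head that contacts the rRNA, rose from 52.1 ± 1.72 to 61.2 ± 3.95 CPM (SD, n = 3; log2 fold change 0.23, adjusted p = 0.012). Mrps17 went from 39.5 ± 0.733 to 46.1 ± 2.84 CPM (0.22, adjusted p = 0.017). The other 3 had log2 fold changes of 0.20 for Mrps18b, 0.19 for Mrps15 and 0.16 for Mrps23. In all 5 the GSK samples were above the Veh samples. Of these, Mrps7 was called under every alternative tried. Mrps17 did not pass without Veh replicate 2 (0.053), Veh replicate 3 (0.055), GSK replicate 1 (0.087) or GSK replicate 3 (0.054). The other 3 were less secure. Of the 15 fits, the reported one included, Mrps18b was called in 4, Mrps15 in 7 and Mrps23 in 8. With DESeq2 their adjusted p was 0.11, 0.057 and 0.067, and with upper quartile factors 0.094, 0.078 and 0.079. Its highest value in fits without a sample was 0.16 for Mrps18b (GSK replicate 3), 0.14 for Mrps15 (Veh replicate 3) and 0.090 for Mrps23 (Veh replicate 2).

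At the lower end, named after their values were seen, Mrpl14 was at 20.3, 15.6 and 18 CPM in Veh and at 16.0, 14.4 and 15.9 CPM in GSK (log2 fold change -0.22, standard error 0.11, adjusted p = 0.13). Mrpl9 was at 85.5, 77.5 and 82.1 CPM in Veh and at 72.8, 80.0 and 73.5 CPM in GSK (log2 fold change -0.11, adjusted p = 0.14). The groups overlapped in both genes. Mrpl14 passed the test only without Veh replicate 2 (adjusted p = 0.044) and Mrpl9 only without GSK replicate 2 (0.041), among the alternatives tried. Mrpl14 and Mrpl9 encode large-subunit proteins with bacterial counterparts, the same class as Mrpl16 and Mrpl22.

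Some members were described for their place in the ribosome, whatever their values. Mrps30, a large-subunit protein found only in mitochondria, was at 47.0, 46.2 and 46.2 CPM in Veh and at 50.7, 49.5 and 52.6 CPM in GSK. The groups did not overlap, but the difference of 0.13 on the log2 scale missed the threshold (adjusted p = 0.087). Mrps18a, the other large-subunit protein with a small-subunit name, had overlapping groups, with 29.7 ± 0.922 CPM in Veh against 30.7 ± 1.51 CPM in GSK (SD, n = 3; adjusted p = 0.61). Mrps12, a protein of the decoding site, was at 17.8, 20.4 and 22.6 CPM in Veh and at 22.5, 21.4 and 23.4 CPM in GSK (log2 fold change 0.14, adjusted p = 0.26), with overlapping groups. Mrps36, once counted as a ribosomal protein and since assigned to the 2-oxoglutarate dehydrogenase complex, was kept apart from both subunits. Its level was 30.4 ± 0.867 CPM in Veh and 32.8 ± 1.56 CPM in GSK (log2 fold change 0.11, adjusted p = 0.23).

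Mrpl32 is known as a ribosomal protein that must be cut by the m-AAA protease of the inner membrane before it is built into the large subunit. It was at 33.6, 33.8 and 30.7 CPM in Veh and at 32.8, 29.7 and 32.1 CPM in GSK, with overlapping groups (log2 fold change -0.053, standard error 0.071, adjusted p = 0.61). Afg3l2, a subunit of that protease, was at 187, 175 and 189 CPM in Veh and at 146, 137 and 135 CPM in GSK. It was lower in each GSK sample (log2 fold change -0.40 with a standard error of 0.049, adjusted p = 9e-05). Spg7, the other subunit of the protease among the genes listed, averaged 55.7 CPM in Veh and 56.9 CPM in GSK, with overlapping groups (0.031, adjusted p = 0.69).

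The family spans a moderate range of RNA levels. The mean over the 6 samples lay between 12.2 and 104 CPM, an 8.54-fold range, with a median of 36.3 CPM. Per kb of transcript, the highest levels were those of Mrpl30 (122 CPM per kb), Mrps21 (98.1), Mrpl33 (92.6), Mrpl42 (89.4) and Mrpl18 (85.2). The transcripts of the first 4 are short, at 446 to 664 bases, while that of Mrpl18 has 1219 bases and its mean of 104 CPM is the highest of the family. The lowest were Mrpl17 (4.23 CPM per kb), Mrps25 (4.27) and Mrpl47 (4.88), whose annotated transcripts are long (7300, 6073 and 3364 bases against a median of 1255 over the members), so these 3 values depend on the annotated length. Neighbours within each of these short lists are close, and their order was not tested.

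Of the 5 highest members, 3 rose, as did 28 of all 78 members and 16.6% of all genes tested. Mrpl30 was at 75.3, 76.6 and 75.8 CPM in Veh and at 82.2, 86.9 and 87.9 CPM in GSK (log2 fold change 0.17, adjusted p = 0.015), and it did not pass without Veh replicate 1 (0.055) or Veh replicate 3 (0.0501). Mrpl18 was at 95.8, 99.9 and 97.1 CPM in Veh and at 105, 107 and 119 CPM in GSK (0.18, adjusted p = 0.028). Without GSK replicate 3 its adjusted p was 0.12, without Veh replicate 1 it was 0.092 and without Veh replicate 3 it was 0.083, and with upper quartile factors it was 0.071. Mrpl42 was at 50.2, 58.6 and 55.0 CPM in Veh and at 64.5, 57.7 and 70.2 CPM in GSK, the one called member whose groups overlapped (0.23, adjusted p = 0.037). It did not pass without Veh replicate 1 (0.14), Veh replicate 3 (0.090), GSK replicate 1 (0.11) or GSK replicate 3 (0.13), nor with upper quartile factors (0.070) or total counts only (0.0502). Mrpl33 (0.17, adjusted p = 0.062), Mrps21 (0.13, adjusted p = 0.14) and Mrps25, one of the lowest (0.081, adjusted p = 0.42), did not pass. Mrpl33 passed only without GSK replicate 2 (0.018).

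Across the 78 members, as a description, the log2 fold change had a Spearman correlation of -0.082 with transcript length and of -0.037 with mean CPM; all members share the same 6 libraries. Standard errors of the log2 fold change ran from 0.049 to 0.11 (median 0.070), with a median coefficient of variation of 4.88% in Veh and 4.90% in GSK. Members lie on 17 chromosomes. Exons of 33 members overlap another annotated gene, of which 11 rose (median log2 fold change 0.13), and 45 overlap none, of which 17 rose (0.16). Beside Mrpl12 and Mrpl47, of the named members Mrps25 shares 4590 exon bases with Nr2c2, Mrps30 623 with B430218F22Rik, Mrps18b 638 with Gm16279, Mrps7 246 with Gga3 and Mif4gd, Mrpl9 157 with Oaz3, Mrpl18 141 with Tcp1, Mrpl14 106 with Tmem63b and Mrpl49 91 with Syvn1, each on the opposite strand, and on the same strand Mrpl33 shares 261 with Gm43809 and Mrpl51 87 with Mir3098. Reads there are uncertain, as the strand setting of the counting is not given in the sources used here.

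Other ribosomal and mitochondrial genes were set beside the members. At the same threshold 16.6% of all genes tested were higher and 15.5% were lower, and 49.3% had a fold change above 0. Of the 83 genes in the table with an Rpl or Rps name of a cytosolic ribosomal protein, 81 were tested, 2 rose and 1 fell. Their median log2 fold change was -0.015, and 27 were above 0. The 2 that rose were Rps27l (0.35, adjusted p = 5.3e-04) and Rpl7l1 (0.31, adjusted p = 0.0014), both paralogues of standard ribosomal proteins, and the 1 that fell was Rpl29 (-0.11, adjusted p = 0.040). The list was taken by name and misses genes under other names. Fau, which encodes a small-subunit protein, is not in it and fell as well (-0.11, adjusted p = 0.032). The lower count is small and moves with the scaling, to 10 with upper quartile factors, to 7 with total counts only and to 0 when Veh replicate 1, Veh replicate 2, Veh replicate 3 or GSK replicate 1 is left out. The summed level of the cytosolic family changed by -1.32% from Veh to GSK, against 10.1% for the mitochondrial family. Of the 96 tested respiratory chain and ATP synthase genes, assembly factors included, 22 rose (22.9%) and 2 fell, with a median of 0.10 and 90 above 0. Past the fold change of 1.5 were Ndufaf4, an assembly factor of complex I, at 14.4, 15.2 and 12.6 CPM in Veh and 22.8, 19.0 and 27.8 CPM in GSK (0.72, adjusted p = 0.0021), and Cox6b2, at 2.39 CPM or less in Veh and 3.67 to 4.45 CPM in GSK (0.92, adjusted p = 0.0089). The 2 that fell were Ndufv3 (-0.48, adjusted p = 6.4e-05) and Cox7a2l (-0.15, adjusted p = 0.028), the latter not without Veh replicate 1 (0.14), Veh replicate 3 (0.083), GSK replicate 1 (0.11) or GSK replicate 3 (0.055). The higher count of this group was 9 without Veh replicate 1 or GSK replicate 1, 11 without Veh replicate 3 or GSK replicate 3, and 12 with upper quartile factors. No difference between these families was tested.

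**Figure D4:**
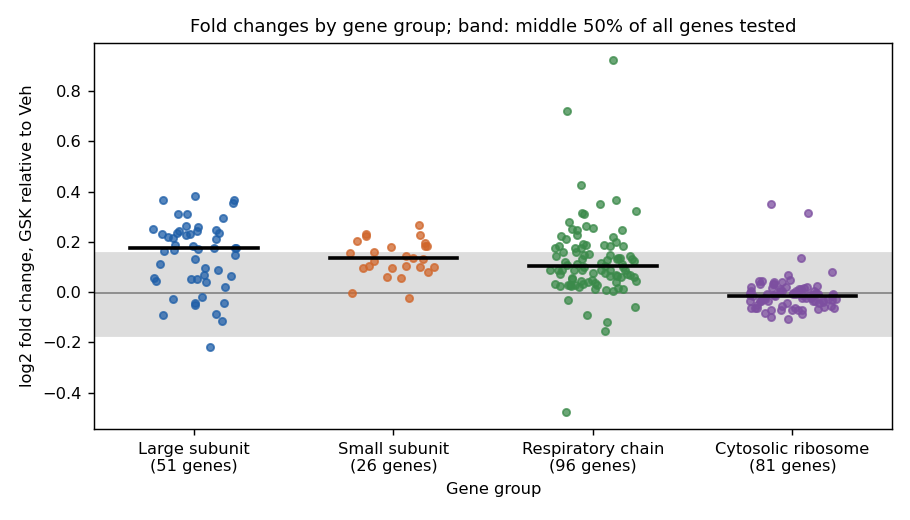
Log2 fold change in GSK relative to Veh of each tested gene (points) in 4 groups, with the group median as a black line and the middle 50% of all genes tested as a grey band. The medians are 0.17 for the large subunit, 0.13 for the small subunit, 0.10 for the respiratory chain and -0.015 for the cytosolic ribosome.

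Genes that serve the mitochondrial ribosome were counted by list, to be read against the 16.6% of all genes that were higher. No list was tested against the members or against other genes. Of 5 subunits that do not carry an Mrp name (Dap3, Ptcd3, Chchd1, Aurkaip1 and Gadd45gip1), 1 rose (20%), the small-subunit protein Ptcd3, from 57.1 ± 1.34 to 68.0 ± 3.81 CPM (SD, n = 3; log2 fold change 0.25, adjusted p = 0.0051). Of 25 assembly and rRNA-modifying factors 5 rose (20%) and none fell, a share near that of all genes. The largest were Mrm3, which methylates the rRNA of the large subunit (0.52, adjusted p = 0.012), Fastkd2, which binds that rRNA (0.51, adjusted p = 9.0e-04), and Gtpbp10, a GTPase of large-subunit assembly (0.35, adjusted p = 0.018). Without Veh replicate 1, Mrm3 (0.057) and Gtpbp10 (0.076) did not pass, and 3 factors rose in place of 5, as they did without Veh replicate 3. Fastkd2 was at 18.9, 17.3 and 20.1 CPM in Veh and at 28.1, 24.2 and 28.1 CPM in GSK, a larger estimated fold change than that of any member.

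Of 14 translation factors and mRNA-binding proteins, 2 rose (14.3%) and none fell. Gfm1, the elongation factor that moves the ribosome along the mRNA, was at 59.9, 68.4 and 62.1 CPM in Veh and at 79.2, 75.8 and 89.4 CPM in GSK (0.36, adjusted p = 0.0022). Lrpprc, which stabilizes mitochondrial mRNAs, rose by 0.28 on the log2 scale (adjusted p = 9.4e-04). Of 10 genes of mitochondrial transcription and DNA replication, 1 rose (10%), the single-stranded DNA-binding protein Ssbp1 (0.18, adjusted p = 0.039), which did not pass without Veh replicate 1 (0.087), Veh replicate 3 (0.14), GSK replicate 1 (0.10) or GSK replicate 3 (0.13), or with DESeq2 (0.081), upper quartile factors (0.087) or total counts only (0.058). Of 8 genes that insert new chains into the inner membrane or control their quality, 4 rose (50%) and 1 fell. Phb, a prohibitin, rose most (0.39, adjusted p = 2.9e-04), followed by Letm1 (0.33, adjusted p = 6.8e-04) and Cox18 (0.28, adjusted p = 0.033), and the one that fell was Afg3l2. Cox18 did not pass without Veh replicate 1 (0.078), Veh replicate 3 (0.11), GSK replicate 1 (0.14) or GSK replicate 3 (0.073), or with DESeq2 (0.0895) or upper quartile factors (0.056), and without Veh replicate 1 only 2 of the 8 rose.

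A list of 13 genes taken as markers of mitochondrial mass also held import proteins and chaperones. Of these 13 genes 8 rose (61.5%), among them Tomm40, the import pore of the outer membrane (0.34, adjusted p = 0.0011), the chaperonin Hspd1 (0.31, adjusted p = 0.0034) and the import protein Timm23 (0.29, adjusted p = 0.0053). The channel Vdac1 fell (-0.22, adjusted p = 0.0023). The 4 that did not pass were Tomm22 (0.11, adjusted p = 0.080), Tomm20 (0.069, 0.26), Vdac3 (0.070, 0.32) and Timm44 (0.028, 0.75). Cs rose by 0.12 (adjusted p = 0.034). It did not pass with upper quartile factors (0.119) or total counts only (0.059), or with any one sample left out except GSK replicate 2 (0.0655 to 0.153). The higher count of this list was 4 without Veh replicate 3 or GSK replicate 1 and 5 without Veh replicate 1 or GSK replicate 3. Their summed level was 2579 to 2695 CPM in Veh and 2717 to 3044 CPM in GSK, a rise of 10.3%, with GSK replicate 2 the lowest GSK sample here as well. The part of mitochondrial mass in the members' change was not tested. The 13 proteins encoded by mitochondrial DNA were not analysed here. Of 9 nuclear regulators of mitochondrial genes, 8 were tested. Pprc1, a coactivator of the PGC-1 family, was at 77.1, 82.9 and 68.7 CPM in Veh and at 114, 95.3 and 118 CPM in GSK (0.52, adjusted p = 0.0029), and Gabpa, the DNA-binding subunit of GABP, fell (-0.17, adjusted p = 0.015), a call lost without Veh replicate 1 (0.064) or GSK replicate 1 (0.071).

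Motifs were searched on both strands from 250 bases before to 50 bases after each RefSeq start, a window at hand for 69 of the 78 members and 9422 of the genes tested. The core of the NRF1 motif, CGCATGCG, was in 7 members (10.1%), in 4.49% of the tested genes and in 1.87% of all 32851 windows. The ETS motif CCGGAAGT was in 12 members (17.4%), in 9.64% of the tested genes and in 3.89% of all windows. The YY1 motif AAGATGGC was in 12 members (17.4%), in 5.49% and in 2.75%, and the E-box CACGTG, bound by MYC among others, in 5 members (7.25%), in 11.7% and in 7.15%. No motif contains another.

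Of the 7 members with the NRF1 core 3 rose, at a median of 0.090 on the log2 scale, and of the 62 without it 22 rose, with a median of 0.16. The 7 include Mrpl17 and Mrpl22, which rose, and Mrpl32 and Mrpl9, which did not pass, all shown above. The others, not shown, were Mrps18b, which rose (0.20), and Mrpl10 (0.090) and Mrpl39 (-0.020), which did not pass. With the ETS motif 4 of 12 rose (median 0.10), with the YY1 motif 4 of 12 (0.16) and with the E-box 3 of 5 (0.24). These are small counts, to be read against the 16.6% of all genes tested that were higher. The share that rose among all tested genes with each motif is not given here. Members with and without a motif were not tested against each other, and a match is a description of the letters only.

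Many members lie head to head with another gene. By the GENCODE gene ends, 23 members start close to a protein-coding gene on the opposite strand, and 22 of these neighbours were tested. Over the 22 pairs the median log2 fold change was 0.15 for the members and -0.027 for the neighbours, 9 members rose and none fell, while 1 neighbour rose, 4 fell and 17 did not pass. Over all genes tested, 16.6% were higher and 15.5% were lower, and the share of these neighbours that fell was near the latter. Without Veh replicate 1 the members that rose were 5, and the neighbours that fell were 1 without Veh replicate 3 and 2 without GSK replicate 1. The member had the higher fold change in 18 of 22 pairs. The neighbours named here were chosen after their values were seen. Mrpl51, a large-subunit protein found only in mitochondria, starts 100 bases from Ncapd2, a subunit of condensin. Mrpl51 was at 54.9, 57.5 and 54.4 CPM in Veh and at 70.1, 62.0 and 68.0 CPM in GSK (0.26, standard error 0.059, adjusted p = 0.0049). Ncapd2 was at 606, 605 and 628 CPM in Veh and at 517, 528 and 504 CPM in GSK (-0.25, standard error 0.036, adjusted p = 3.1e-04). In both genes the groups stood apart, in opposite directions.

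Mrpl2 had a log2 fold change of 0.22 and was called in 6 of the 15 fits. It did not pass with DESeq2 (adjusted p = 0.077), upper quartile factors (0.085), total counts only (0.061) or thinned counts (0.061), nor without Veh replicate 1 (0.18), Veh replicate 3 (0.086), GSK replicate 1 (0.16) or GSK replicate 3 (0.13). It starts 207 bases from the kinesin light chain gene Klc4, which was at 7.66, 8.50 and 5.16 CPM in GSK, below each Veh sample (-0.62, adjusted p = 0.013) and did not pass without Veh replicate 3 (0.058). Mrpl32 starts 75 bases from the proteasome gene Psma2 by the GENCODE gene ends. Its pair of NRF1 cores lies inside the gene as GENCODE annotates it, not between the starts of the genes. Psma2 rose from 207, 212 and 209 CPM in Veh to 241, 229 and 256 CPM in GSK (0.21, adjusted p = 0.0046) while Mrpl32 did not pass. The other neighbours that fell were Apba3 beside Mrpl54 (-0.29, adjusted p = 0.013) and Fau beside Mrpl49 (-0.11, adjusted p = 0.032). Apba3 did not pass without Veh replicate 3 (0.056) or GSK replicate 1 (0.054), and Fau did not pass with any one sample left out except GSK replicate 3 (0.057 to 0.10).

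**Figure D5:**
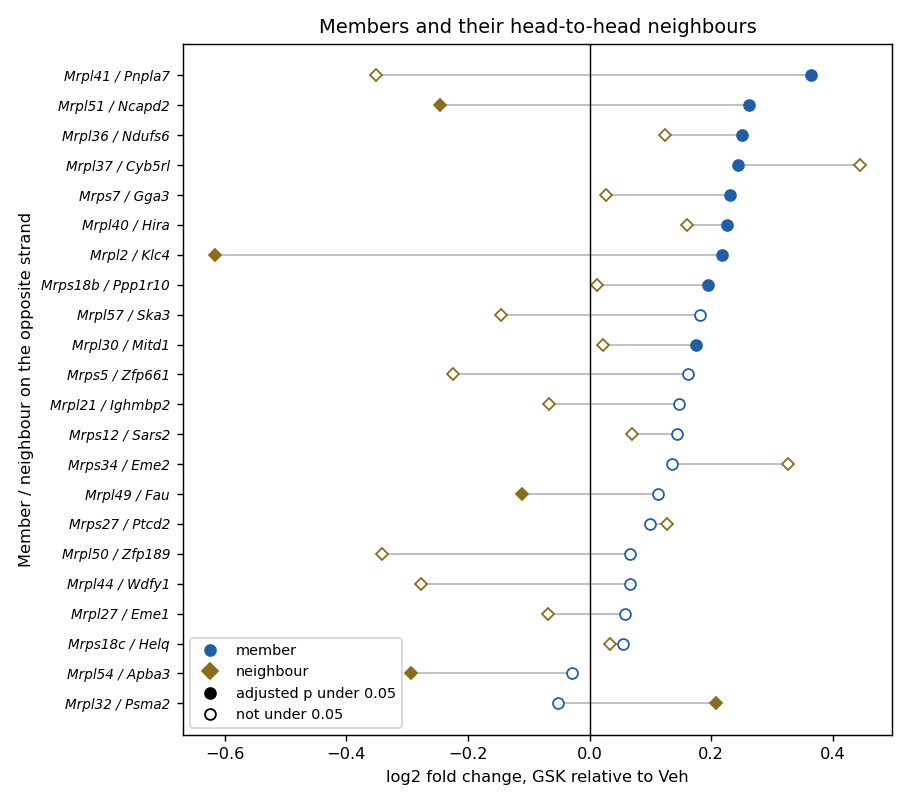
Log2 fold change in GSK relative to Veh of members (blue circles) and of their head-to-head neighbours (brown diamonds), joined per pair, for the 22 tested pairs. Filled symbols have an adjusted p under 0.05, and the member is to the right of its neighbour in 18 pairs.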

How the data were processed

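RNA was measured in 3 GSK and 3 Veh samples. The authors trimmed reads with Trimmomatic, mapped them to GRCm38 with HISAT2 (version 2.1.0) and counted them per gene with HTSeq (version 0.11.2). The deposited values are these raw counts, without normalization, and counts of low genes are less precise. Libraries were stranded, but the strand setting and annotation of the counting are not given in the sources used here. The study's processing notes also name Cufflinks (version 2.2.1) and DESeq2 (version 1.22.2).

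From the counts, GSK was set against Veh with edgeR (version 4.0.16; R version 4.3.3), by TMM scaling, filterByExpr and the robust quasi-likelihood test with Benjamini-Hochberg adjustment over all genes tested. Standard errors were derived from the test statistic, the script was tested on simulated data, and log2 levels by sample used a prior count of 2. Alternatives were DESeq2 (version 1.42.0), other scalings and filters, counts thinned to one total, the replicate block and leaving out each sample. The labels give no batch.

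The members and lists were chosen with earlier results of these data known. Genes named by rule were members past both thresholds, the 8 called members with the largest change each way, the 5 highest and 3 lowest per kb, Mrps30, Mrps18a, Mrps36, Mrpl12, Mrpl32, Mrps12, Kdm1a, and from each other list those past both thresholds or else up to 3 each way. Others were named after their values were seen. Positions, transcript lengths (median of principal transcripts) and neighbours (starts 200 bases overlapping to 1000 bases apart) came from GENCODE, and promoters from RefSeq, both for GRCm38. Replicates within a group came from separate mice. The study names 3 separate mice and 3 mice per group, and whether same-numbered samples share a mouse is not given in the sources used here.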

Additional observations from a re-analysis of the deposited data

How the results depend on the processing

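The number of members higher in GSK, 28 as reported, was 28 with RLE size factors, 28 without a filter on low counts, 28 with a filter at a CPM of 1, 26 with thinned counts, 23 with total counts only, 20 with DESeq2 and 19 with upper quartile factors. Leaving out single samples gave from 13 to 32 higher members, with 13 without GSK replicate 3, 14 without Veh replicate 1, 17 without Veh replicate 3, 18 without GSK replicate 1, 25 without Veh replicate 2 and 32 without GSK replicate 2. Lower members numbered from 0 to 1 in these fits (Mrpl14 without Veh replicate 2, Mrpl9 without GSK replicate 2) and 0 under all other alternatives run. At an unadjusted p under 0.05, 39 members were higher and 0 lower with edgeR, and 36 and 0 with DESeq2. The shares of all genes at this unadjusted threshold, or called in any fit but the reported one, are not given here. With upper quartile factors 3 small-subunit and 4 mitochondria-specific members were higher, and with DESeq2 3 and 5. No member passed the fold change of 1.5 under any alternative run. In every one of the 15 fits 10 members were called higher, and 61 kept a fold change above 0. The medians of all members and of both subunits moved by less than the spread between replicates under every alternative. The scalings moved the median of all genes to between -0.0048 and -0.039.

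With a replicate block in the model, 22 members were higher and 0 lower, and the median log2 fold change of the members was 0.159. Deviations from the group means of same-numbered samples had correlations of -0.052, -0.081 and 0.16 across genes, so the numbers were not shown to pair the samples. With the block, 3 small-subunit members and 15 respiratory chain genes were higher, and of the named genes Mrpl42 (adjusted p = 0.055), Mrpl2 (0.079), Mrps15 (0.052), Mrps18b (0.082), Mrps23 (0.055), Ssbp1 (0.076), Cox18 (0.057), Cox7a2l (0.064), Rpl29 (0.080), Fau (0.069) and Cd2 (0.056) did not pass. Nor did Cs pass with the block (0.071). The members' standard errors had a median of 0.070 on the log2 scale, which limits the changes that 3 samples a group can resolve.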
